A study of Homo sapiens with 5 samples.

Results

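The ETS genes ETV1, ETV4, ETV5 and FLI1 were examined for histone H3 lysine 27 acetylation (H3K27ac) and histone H3 lysine 4 monomethylation (H3K4me1) in VCaP, an established human prostate cancer cell line. Each gene was given a window of its span in build hg19 with 50 kb on either side, and every listed peak overlapping a window by at least 1 bp was taken. This gave 116 peaks out of 364358 in the 4 peak lists, of which 33 lay in the ETV1 window, 32 in the ETV4 window, 25 in the ETV5 window and 26 in the FLI1 window. The rule for peaks used positions alone, and the genes were chosen with earlier results of these data known.

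Chromatin immunoprecipitation with sequencing (ChIP-seq) was done in 2 libraries for each mark. The study also has 1 input library of sheared chromatin taken without antibody, which is not analysed here as a sample. All libraries came from VCaP cells grown in medium with serum, and the labels name no treatment, genotype change or time point. Nothing in them ties the replicates to distinct cultures, and their spread may be technical. The lists hold positions and no height, so the identity of the line was not checked on expression. Peak lists from a cell population cannot tell few marked cells or alleles from weak marking of all of them.

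ETS proteins are transcription factors that share a winged helix DNA-binding domain and recognise the core motif GGAA. ETV1, ETV4 and ETV5 make up the PEA3 subfamily, which acts downstream of receptor tyrosine kinase and MAP kinase signalling. FLI1 belongs to another subfamily with ERG, is active in blood and endothelial cells, and is the partner of EWSR1 in the fusion of Ewing sarcoma. In prostate cancer ERG is the ETS gene most often activated by rearrangement, ETV1, ETV4, ETV5 and FLI1 are rearranged in smaller groups of tumours, and VCaP carries the TMPRSS2-ERG fusion. H3K27ac marks active promoters and enhancers. H3K4me1 marks enhancers, active or not, and the shoulders of promoters.

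ETV1 spans chr7:13930856-14031050 on the minus strand, with a window of 200.2 kb. ETV4 spans chr17:41605211-41623800 on the minus strand, with a window of 118.6 kb. ETV5 spans chr3:185764106-185826901 on the minus strand, with a window of 162.8 kb. FLI1 spans chr11:128556430-128683162 on the plus strand, with a window of 226.7 kb. The gene start is taken as the 5′ end of the span. The only gene table at hand is of build GRCh38, so it was used for names alone. In that table DHX8, an RNA helicase gene, overlaps ETV4, the noncoding genes ETV5-AS1 and LOC124909470 overlap ETV5, and SENCR and LOC101929538 overlap FLI1. None of the peaks was assigned to an exon, an intron or a neighbouring gene, because exon positions in hg19 were not used here.

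In every window H3K4me1 was spread over many places and H3K27ac was found at a few. The 4 windows held 10 and 12 H3K27ac peaks in replicates 1 and 2, and 48 and 46 H3K4me1 peaks in replicates 1 and 2. FLI1 stood at one end, with 1 H3K27ac peak per library, and ETV4 at the other, with the most of both marks per length. ETV1 was the one gene of the 4 with H3K27ac at its start. H3K27ac near ETV5 lay upstream of the gene and near ETV4 beyond its 3′ end, with 0 H3K27ac peaks inside the spans of these 2 genes in either library.

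**Figure D1:**
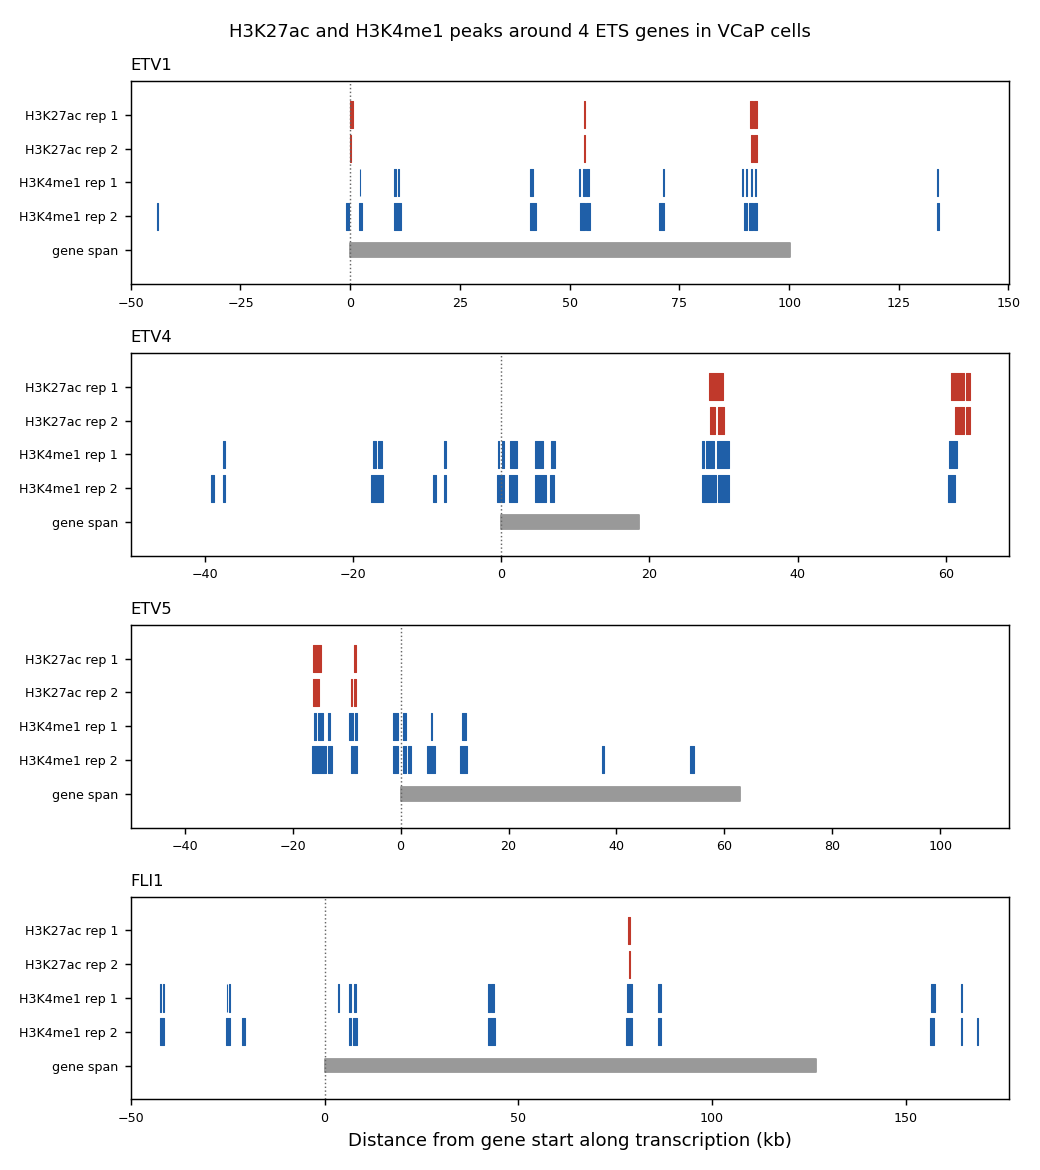
Peaks of each library (rows) along the 4 windows, with the x axis giving the distance from the gene start in kb, positive in the direction of transcription, and the grey bar marking the gene span. Red bars are H3K27ac and blue bars H3K4me1, each drawn to scale with a thin outline. H3K27ac lies at the start, near 53 kb and near 91 kb of ETV1, beyond the end of ETV4, upstream of ETV5 and at 78 kb in FLI1.

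The lists differed in ways that bear on these values. The smallest listed width was 221 and 172 bp in H3K27ac replicates 1 and 2, and 191 and 232 bp in H3K4me1 replicates 1 and 2. Over whole lists H3K4me1 replicate 2 covered 1.55 times the length of replicate 1, and H3K27ac replicate 2 covered 0.926 times that of replicate 1. Sequencing depth is not given in the sources used here. All 10 H3K27ac peaks of replicate 1 in the windows and 11 of 12 in replicate 2 overlapped a peak of the other replicate, against 87.9 and 86.0% of the whole lists. For H3K4me1 this held for 45 of 48 peaks of replicate 1 and 37 of 46 of replicate 2 (93.8 and 80.4%), against 88.3 and 68.7% of the whole lists.

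H3K27ac per length was highest around ETV4, where all of it lay beyond the 3′ end of the gene, and lowest around FLI1. It covered 3.65 and 2.67% of the ETV4 window in replicates 1 and 2 (mean 3.16 ± 0.696%, SD, n = 2). It covered 1.17 and 1.03% of the ETV5 window (1.10 ± 0.0969%, n = 2) and 1.08 and 0.743% of the ETV1 window (0.913 ± 0.240%, n = 2). In the FLI1 window, peaks covered 0.247 and 0.109% (0.178 ± 0.0970%, n = 2). Both ETV4 values lay above, and both FLI1 values below, all values of the other genes, while ETV5 and ETV1 overlapped. Within libraries the order ETV4, ETV5, ETV1, FLI1 was the same in both replicates, but ETV5 exceeded ETV1 by only 0.0871 percentage points in replicate 1 and 0.290 in replicate 2. An exact two-sided sign-flip permutation test of the within-library differences gave p = 0.5 for each of the 6 pairs of genes (0.5 after Benjamini-Hochberg adjustment), the smallest value that 2 libraries allow.

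The order of the genes for H3K27ac turned on where the window ended. Within gene spans alone, ETV1 had the most H3K27ac (1.82 ± 0.480%, n = 2), FLI1 came next (0.318 ± 0.174%, n = 2), and ETV4 and ETV5 had none. With flanks of 100 kb, FLI1 lay above ETV1 and ETV5, with 1.06% of the window covered against 0.661 and 0.682%. The ring from 50 to 100 kb around FLI1 held 5 H3K27ac peaks in replicate 1 (1 upstream and 4 downstream) and 6 in replicate 2 (3 and 3). The nearest of them lay 77.0 kb beyond the 3′ end of FLI1, and upstream the nearest lay 88.5 kb from the start in replicate 1 and 78.7 kb in replicate 2. KCNJ1 is the next coding gene beyond FLI1 and ETS1, another ETS gene, the next before it. The ring around ETV5 held 0 H3K27ac peaks in either library, and the rings around ETV1 and ETV4 held between 0 and 2. Of all peaks, those closest to the 50 kb limit were H3K27ac 44.1 kb beyond the end of ETV4, inside it, and H3K4me1 of replicate 2 at 51.1 kb beyond the end of ETV1, outside it.

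H3K4me1 was densest at ETV4, and the other 3 genes were close to each other. Peaks covered 7.54 and 9.54% of the ETV4 window in replicates 1 and 2 (8.54 ± 1.42%, n = 2). The ETV5 window had 3.13 and 6.09% (4.61 ± 2.09%, n = 2), the FLI1 window 3.17 and 4.55% (3.86 ± 0.977%, n = 2), and the ETV1 window 2.12 and 5.03% (3.58 ± 2.06%, n = 2). Both ETV4 values lay above all others, and the ranges of ETV5, FLI1 and ETV1 overlapped. With flanks of 100 kb, ETV4 and FLI1 drew level at means of 5.87 and 5.86%. ETV4 exceeded ETV1 by 5.42 and 4.51 percentage points in replicates 1 and 2, ETV5 by 4.41 and 3.45, and FLI1 by 4.37 and 5.00. FLI1 was above ETV1 by 1.05 points in replicate 1 and below it by 0.487 in replicate 2, and its order with ETV5 changed between replicates too. The exact two-sided sign-flip permutation test gave p = 0.5 for 4 pairs and p = 1 for the pairs of FLI1 with ETV1 and with ETV5 (adjusted 0.75 and 1).

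**Figure D2:**
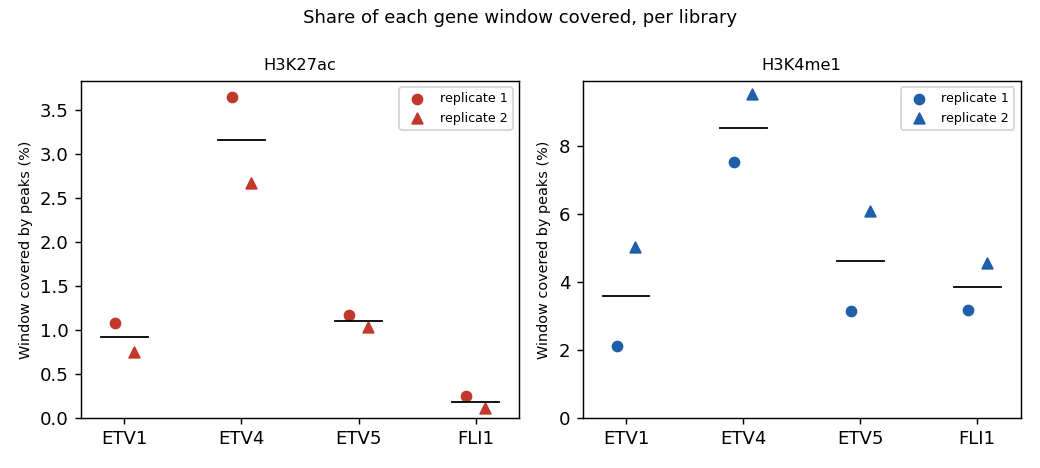
Percentage of each gene window covered by peaks of H3K27ac (left) and H3K4me1 (right, on its own scale), with a circle for replicate 1, a triangle for replicate 2 and a line at the mean. For both marks the ETV4 points lie above those of the other genes, and for H3K27ac the FLI1 points, 0.247 and 0.109%, lie lowest.

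Numbers of H3K4me1 peaks told the genes apart less than covered length did. The ETV1 and ETV4 windows each held 13 and 12 H3K4me1 peaks in replicates 1 and 2, the FLI1 window 13 and 11, and the ETV5 window 9 and 11. Per 100 kb this made 11.0 and 10.1 peaks for ETV4, 6.49 and 5.99 for ETV1, 5.53 and 6.76 for ETV5, and 5.73 and 4.85 for FLI1. Only ETV4, with the shortest span, lay outside the range of the others. H3K27ac peaks numbered 4 and 4 at ETV1, 3 and 4 at ETV4, 2 and 3 at ETV5, and 1 and 1 at FLI1.

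H3K4me1 exceeded H3K27ac in all 4 windows, and by the widest ratio at FLI1. Over the 4 pairings of an H3K4me1 with an H3K27ac library, the ratio of covered lengths ran from 12.8 to 41.6 at FLI1, from 2.68 to 5.90 at ETV5, from 1.95 to 6.78 at ETV1 and from 2.06 to 3.57 at ETV4. The FLI1 range overlapped none of the others, and over whole lists the ratio was 0.988 to 1.65. With gene spans only, FLI1 had 8.38 to 22.4, against 1.83 to 5.89 at ETV1. The spans of ETV4 and ETV5 held H3K4me1 and no H3K27ac, so their ratios had no upper bound and FLI1 was not the widest there. With flanks of 100 kb the ranges overlapped, at 4.07 to 7.17 for FLI1 and 3.54 to 7.57 for ETV5. The difference of mean covered shares, H3K4me1 minus H3K27ac, was 5.38 percentage points at ETV4, 3.68 at FLI1, 3.51 at ETV5 and 2.66 at ETV1. Both H3K4me1 libraries lay above both H3K27ac libraries in 4 of 4 windows, as they did in 53.1% of 13950 tiles of 177.1 kb, the mean window width, laid side by side over the autosomes and chromosome X wherever a list had a peak. The exact two-sided permutation test of marks gave p = 0.333 for each gene (0.333 adjusted over 4 tests), the smallest value that 2 against 2 libraries allow. When every list was held to equal numbers of its widest peaks, the libraries of the marks overlapped at ETV1 (difference 1.30 percentage points, exact permutation p = 0.667) and stayed apart at the other 3 genes.

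Set against tiles of their own width, H3K27ac stood lower than H3K4me1 in all 4 windows and both replicates. The FLI1 window had more H3K27ac than 20.6 and 17.1% of tiles in replicates 1 and 2, and more H3K4me1 than 66.0 and 61.3%. On chromosome 11 alone FLI1 stood above 17.1 and 15.9% of tiles for H3K27ac and above 53.3 and 48.4% for H3K4me1, near the chromosome's median. The ETV4 window had more H3K4me1 than 90.8 and 87.3% of tiles and more H3K27ac than 69.6 and 63.1%. On chromosome 17 alone, where tiles carry more of both marks, the ETV4 window stood above 81.4 and 77.9% of tiles for H3K4me1 and above 52.6 and 44.7% for H3K27ac. ETV5 and ETV1 had less H3K27ac than the median tile, above 40.9 and 40.6% and above 38.5 and 33.9% of tiles, and as much H3K4me1 as the median tile or more (65.1 and 72.6%, and 51.2 and 65.3%). On chromosome 7 alone ETV1 stood above 43.3 and 60.2% of tiles for H3K4me1, on either side of the chromosome's median. For ratios, all genes were set against the same tiles of 177.1 kb, the mean window width. The ratio of mean H3K4me1 to mean H3K27ac coverage, 21.7 at FLI1, exceeded that of 98.3% of the 11683 such tiles with H3K27ac, whose median was 1.37. At ETV5, ETV1 and ETV4 the ratios of 4.19, 3.92 and 2.70 exceeded 86.2, 85.1 and 77.3% of these tiles. Tiles include land without genes, so these positions describe the windows and test nothing.

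For each mark, overlapping peaks of replicates 1 and 2 were joined, and a joined region is called replicated where both replicates contributed to it. The 4 windows held 10 replicated H3K27ac regions, of which 4 were at ETV1, 3 at ETV4, 2 at ETV5 and 1 at FLI1. All 4 windows thus held H3K27ac found in both libraries, against 79.7% of tiles with a peak of each library, and all 4 held such H3K4me1, against 92.7%. There were 37 replicated H3K4me1 regions, 10 at ETV1, 10 at ETV4, 8 at ETV5 and 9 at FLI1. Another 12 H3K4me1 regions were found in 1 library only, 3 of 200 to 283 bp in replicate 1 and 9 of 279 to 824 bp in replicate 2.

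As in the whole lists, most H3K27ac regions near these genes lay on H3K4me1, while most H3K4me1 regions had no H3K27ac. Of the 10 H3K27ac regions, 8 overlapped a replicated H3K4me1 region (80%, exact 95% binomial interval 44.4 to 97.5%), against 73.5% of all replicated H3K27ac regions. Of the 37 H3K4me1 regions, 9 overlapped H3K27ac (24.3%, interval 11.8 to 41.2%), against 47.1% of all replicated H3K4me1 regions. By gene these were 3 of 10 at ETV1, 3 of 10 at ETV4, 2 of 8 at ETV5 and 1 of 9 at FLI1. The 9 H3K4me1 regions with H3K27ac had a median width of 1190 bp and the 28 without one of 977.5 bp, with ranges of 454 to 2587 and 243 to 1998 bp that overlapped. The intervals cover counting error over regions only. They treat regions as independent although these lie together in a few windows, so they do not test a departure from the whole lists. H3K27ac coverage lay below the median of all tiles at ETV1, ETV5 and FLI1, and above it at ETV4. Whether the 24.3% was lower than such coverage alone would give was not tested. Other ways of cutting the lists were not tried for the 24.3%. The share of 80%, taken gene by gene, depended on how the lists were cut. In one setting, peaks with fewer than 232 bp between them were joined and those narrower than 232 bp dropped. The share then rose from 75 to 100% at ETV1 and from 66.7 to 100% at ETV4, and stayed at 100% at ETV5 and FLI1. Another setting kept the 54996 widest peaks of every list, out of 118551 and 125705 for H3K4me1 and 54996 and 65106 for H3K27ac. With equal numbers of widest peaks, the share of H3K27ac regions on H3K4me1 went from 75 to 0% at ETV1, from 100 to 50% at ETV5 and was 66.7% at ETV4, and FLI1 had no replicated H3K27ac region left.

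The places of the peaks relative to each gene differed. At ETV1 all 8 H3K27ac peaks of both libraries lay in the gene span, as did 21 H3K4me1 peaks, and each flank held 2 H3K4me1 peaks over both libraries. At ETV4 H3K27ac covered 7.50 ± 1.65% (n = 2) of the downstream flank and none of the span or the upstream flank. H3K4me1 at ETV4 covered 17.7 ± 1.63% of the span, 8.46 ± 0.150% of the downstream and 5.23 ± 2.61% of the upstream flank (n = 2 each), the last with 3.38 and 7.07% in replicates 1 and 2. At ETV5 the upstream flank carried all H3K27ac (3.59 ± 0.315%) and the most H3K4me1 (8.44 ± 2.18%), and the downstream flank had no peak of either mark. H3K4me1 at FLI1 was found in all 3 places, with 3.92 ± 2.49% of the upstream flank, 4.04 ± 0.490% of the span and 3.32 ± 0.700% of the downstream flank. Their order was not the same in the libraries, since the upstream flank was the lowest of the 3 in replicate 1 (2.16%) and the highest in replicate 2 (5.68%).

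**Figure D3:**
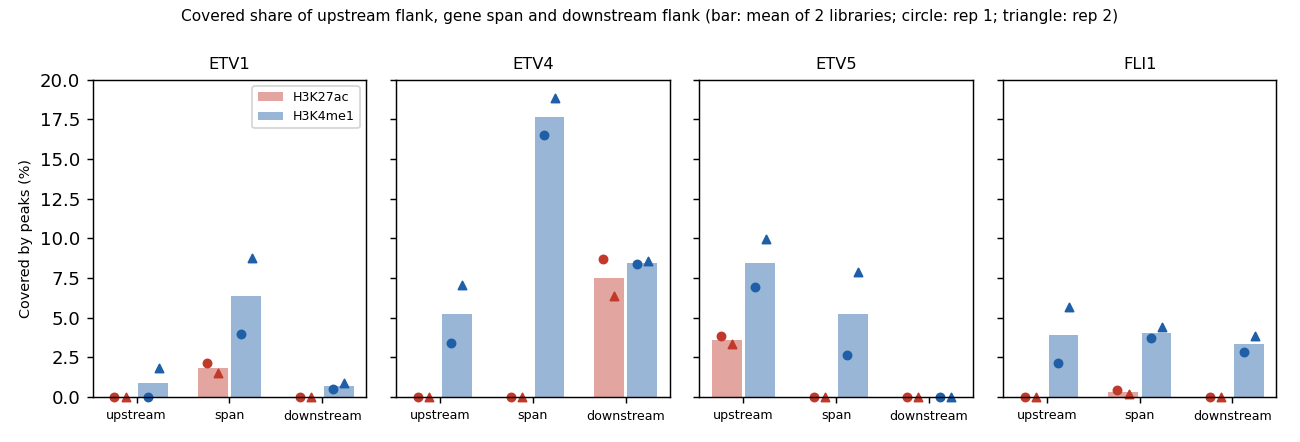
Percentage of the 50 kb upstream flank, the gene span and the 50 kb downstream flank covered by H3K27ac (red) and H3K4me1 (blue) for each gene, on a shared scale. Bars are means of 2 libraries, circles replicate 1 and triangles replicate 2. H3K27ac is in the span at ETV1 and FLI1, downstream at ETV4 and upstream at ETV5.

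At the starts taken here from the spans, the genes differed in the marks listed. ETV4 in H3K4me1 replicate 1 shared with ETV5 a start in a gap of under 1 kb between H3K4me1 peaks. Wider gaps held the start at ETV1 in replicate 2 (2454 bp) and at FLI1 in replicates 1 and 2 (27926 and 26783 bp). At ETV1 an H3K27ac peak lay just inside the start, at chr7:14030511-14030995 in replicate 1 (485 bp) and chr7:14030813-14031011 in replicate 2 (199 bp), 55 and 39 bp from the start. No H3K4me1 peak of either library overlapped it. The nearest H3K4me1 lay 2120 bp inside the gene in replicate 1 and 379 bp upstream in replicate 2, so that only replicate 2 had a peak within 1 kb. With a common minimum width of 232 bp, the largest of the 4 lists, the peak of H3K27ac replicate 2 at the ETV1 start was lost and H3K27ac remained there in 1 of 2 libraries.

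RefSeq lists 6 ETV1 starts in GRCh38, and the others lie 176, 719, 723, 1759 and 5013 bp inside the outermost one. ETV1 was the only one of the 4 genes with H3K27ac within 1 kb of its start, so the sequence before the outermost RefSeq start is shown. The H3K27ac peaks themselves lay inside the gene, 39 to 539 bp from the start. In hg19 no peak of either mark lay in the 250 bp before the start of the span. The printed sequence lies before the start and was not matched to any peak. It covers 250 bases in GRCh38 at chr7:13991426-13991675, minus strand, printed 5′ to 3′ towards the start, with the ETS core GGAA or its complement TTCC in capitals.
ETV1 outermost promoter: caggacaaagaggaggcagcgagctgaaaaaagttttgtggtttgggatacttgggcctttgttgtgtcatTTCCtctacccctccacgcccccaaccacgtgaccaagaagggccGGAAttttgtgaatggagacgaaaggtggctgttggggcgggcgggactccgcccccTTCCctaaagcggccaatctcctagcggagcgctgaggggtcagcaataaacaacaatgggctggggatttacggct
It held 1 GGAA and 2 TTCC, 12 CpG dinucleotides and 56% G and C. Of 35116 RefSeq promoters of this length, 92.7% held the core on either strand, with a median of 3 matches, so 3 matches are common. The median promoter had 11 CpG and 58% G and C. The table matched 1 of the 4 genes, and ETV4, ETV5 and FLI1 have no entry in it. A match of letters is a description and not a binding site.

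At ETV4 the start had H3K4me1 and no H3K27ac. In H3K4me1 replicate 1 a peak of 258 bp began 105 bp inside the gene and one of 212 bp ended 254 bp upstream, leaving a gap of 358 bp with the start in it. In replicate 2 a single peak of 1008 bp at chr17:41623414-41624421 covered the start. The nearest H3K27ac lay 28.0 kb away in replicate 1 and 28.2 kb away in replicate 2, beyond the 3′ end of the gene. Further H3K4me1 followed inside ETV4, with replicated regions of 1125, 1437 and 709 bp that began 1057, 4545 and 6590 bp from the start and had no H3K27ac.

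At ETV5 the start lay in a gap between a pair of H3K4me1 peaks in both libraries. In replicate 1 the peak inside the gene began 351 bp from the start and the one upstream ended 486 bp from it, with a gap of 836 bp between them. In replicate 2 these distances were 367 and 442 bp and the gap 808 bp. H3K4me1 covered 58.2 and 58.1% of the 1 kb on either side of the ETV5 start in replicates 1 and 2. This was 23.5 and 50.4% at ETV4, 0 and 30.9% at ETV1 and none at the start of the FLI1 span. No H3K27ac peak was listed in the ETV5 gap or within 8 kb of the start in either library.

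At FLI1 neither mark was listed within 3 kb of the start of the span. The nearest H3K4me1 lay 3.43 kb inside the gene in replicate 1 and 6.28 kb inside in replicate 2, and the peak at 3.43 kb was absent from replicate 2. A pair of replicated H3K4me1 regions followed at chr11:128562707-128563325 (619 bp) and chr11:128563888-128564682 (795 bp), 6277 and 7458 bp inside the gene. Between them lay a gap of 590 bp in replicate 1 and 562 bp in replicate 2, without H3K27ac. This pair resembles in layout the pair around the ETV5 start, but the layout is not particular to starts. Gaps of like size between H3K4me1 peaks also lay inside ETV1 (593 bp, replicate 1) and ETV4 (608 bp, replicate 2), away from their starts. FLI1 has several RefSeq transcripts, and the start sites of the others in hg19 were not used here. The nearest H3K27ac lay 78.2 kb inside the gene in replicate 1 and 78.6 kb in replicate 2.

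**Figure D4:**
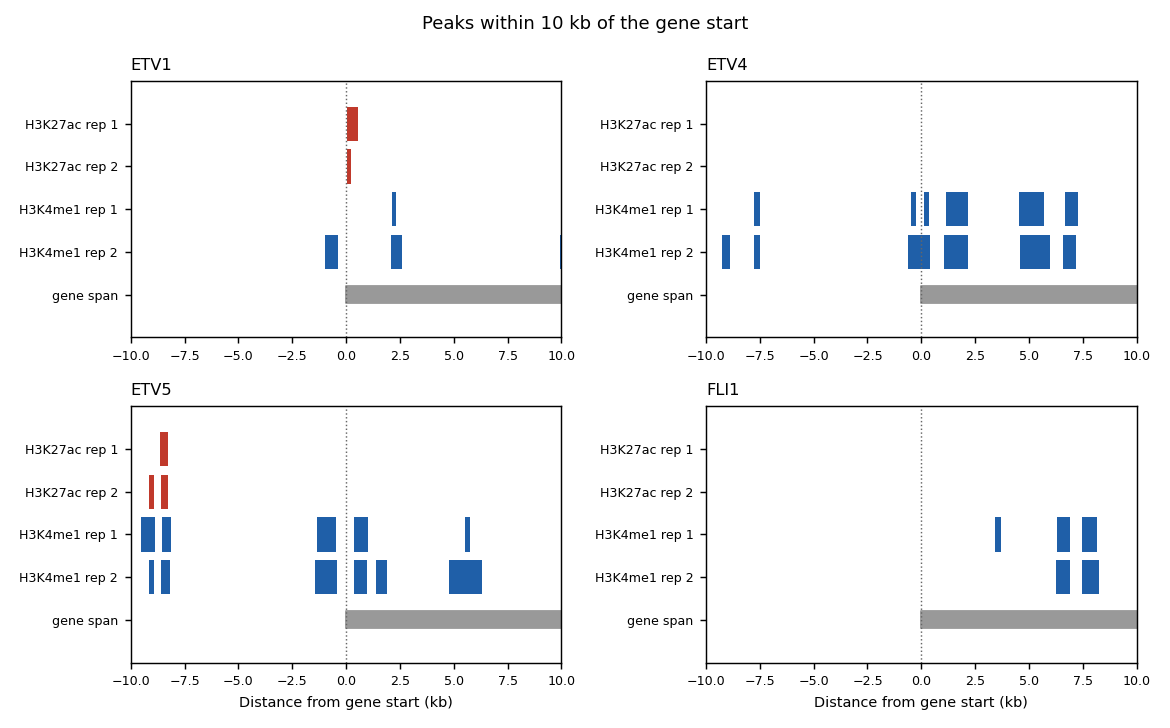
Peaks of each library within 10 kb of the start of each gene, with the x axis giving the distance in kb, positive into the gene. Red bars are H3K27ac and blue bars H3K4me1. ETV1 has H3K27ac at the start, ETV4 has H3K4me1 over or beside it, ETV5 has H3K4me1 on both sides of it, and FLI1 has no peak until 3.43 kb in replicate 1 and 6.28 kb in replicate 2.

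Inside ETV1, H3K27ac recurred at 2 further places. Near the 3′ end a pair of regions lay at chr7:13938378-13939102 (725 and 599 bp in replicates 1 and 2) and chr7:13939316-13939933 (591 and 467 bp), 91.1 to 92.7 kb from the start. Both carried H3K4me1 in both libraries, in peaks of 277 and 374 bp in replicate 1 and 554 and 881 bp in replicate 2. Joined over the libraries, H3K4me1 covered 76.4 and 99.5% of their merged length. Covered shares of single regions given below use H3K4me1 joined in the same way. The region at chr7:13977522-13977887 (366 and 222 bp), 53.2 kb from the start, had H3K4me1 over 87.7% of its length. All 3 of these regions of ETV1 were listed with both marks in all 4 libraries. The 222 bp peak of the region at 53.2 kb, like the 199 bp peak at the start, fell below the common minimum width of 232 bp, which left H3K27ac there in 1 of 2 libraries too. The widest H3K4me1 region of ETV1, at chr7:14019394-14021114 (1721 bp, 9.94 kb from the start), had no H3K27ac and measured 577 bp of peaks in replicate 1 against 1721 bp in replicate 2. Over the whole ETV1 window H3K4me1 replicate 2 covered 2.38 times the length of replicate 1, more than the 1.55 of the whole lists.

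Around ETV4 the widest H3K27ac region lay 28.0 kb from the start at chr17:41593780-41595815, with 1968 bp of peaks in replicate 1 and 1404 bp, in 2 peaks, in replicate 2. H3K4me1 covered 89.9% of it, in 2 replicated regions at chr17:41592999-41594656 (1658 bp) and chr17:41594862-41596753 (1892 bp), the widest H3K4me1 of the ETV4 window. A further H3K27ac pair lay 60.7 to 63.3 kb from the start. Its region at chr17:41561302-41563109 (1808 and 1235 bp) had H3K4me1 over 43.7% of its length, on the side towards ETV4. The region at chr17:41560515-41561072 (558 and 528 bp) had none, which with the ETV1 start makes the 2 regions without H3K4me1. Whether the H3K27ac of this window belongs to ETV4 or to DHX8, which overlaps ETV4 in GRCh38, was not tested. Upstream of ETV4, H3K4me1 alone was replicated at 7.48, 16.0 and 37.3 kb from the start, in regions of 292, 1612 and 243 bp.

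Upstream of ETV5, a gene that helps renew spermatogonial stem cells, both marks lay within 16.4 kb of the start. The widest H3K27ac region lay 14.7 kb upstream at chr3:185841636-185843183, with 1548 bp in replicate 1 and 1131 bp in replicate 2. The widest H3K4me1 region of all 4 windows, chr3:185840713-185843299 (2587 bp), covered the whole of it. H3K4me1 replicate 2 held this region as 1 peak of 2587 bp and replicate 1 as 2 peaks of 945 and 308 bp. The smaller H3K27ac region at chr3:185835177-185835544 (356 and 324 bp), 8.28 kb upstream, had H3K4me1 over 89.1% of its length. Beside it, H3K27ac of 226 bp at chr3:185835834-185836059 was listed in replicate 2 only, on H3K4me1 found in both libraries. All 8 replicated H3K4me1 regions of ETV5 lay within 20 kb of its start, against 6 of 10 at ETV4, 2 of 10 at ETV1 and 2 of 9 at FLI1. DGKG is the next coding gene on this side of ETV5.

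In FLI1 the single H3K27ac region lay at chr11:128634646-128635234, with 559 bp in replicate 1 and 248 bp in replicate 2. It fell wholly on an H3K4me1 region of 1404 bp at chr11:128634361-128635764, present in both libraries with 1170 and 1404 bp. The widest H3K4me1 region of FLI1, chr11:128598503-128600500 (1998 bp, 42.1 kb from the start), carried no H3K27ac. Further H3K4me1 without H3K27ac was replicated 86.0 kb inside the gene (748 bp), upstream at 24.4 and 41.4 kb (975 and 1139 bp), and beyond the 3′ end at 156.2 and 164.2 kb from the start (1393 and 445 bp). FLI1 thus had 9 replicated H3K4me1 regions, between the 8 of ETV5 and the 10 of ETV1 and ETV4, and H3K27ac on 1 of them.

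By length, FLI1 had the highest share of H3K27ac lying on H3K4me1, matched by ETV5 where replicate 2 of both marks was used. It had the lowest share of H3K4me1 lying on H3K27ac. In all 4 pairings of libraries, 100% of the H3K27ac length at FLI1 lay on H3K4me1, against 61.8 to 100% at ETV5, 42.4 to 79.4% at ETV1 and 44.6 to 55.3% at ETV4. Of the H3K4me1 length, 2.41 to 7.79% lay on H3K27ac at FLI1, 17.0 to 23.1% at ETV5, 11.7 to 21.7% at ETV1 and 12.5 to 26.8% at ETV4. The FLI1 range of the latter overlapped none of the other 3. These FLI1 values rest on 1 H3K27ac peak per library, of 559 and 248 bp. The low share of H3K4me1 thus restates the low H3K27ac coverage of the window.

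H3K27ac peaks in the windows were narrower than their lists at the median in both replicates, while H3K4me1 peaks were narrower in replicate 1 and wider in replicate 2. The median width was 575 and 497.5 bp for the H3K27ac peaks of replicates 1 and 2, against 901 and 622 bp over the lists, and 373.5 and 809.5 bp for H3K4me1, against 448 and 649 bp. The widest H3K27ac peak in the windows, 1968 bp downstream of ETV4, was wider than 77.5% of the replicate 1 list. The widest H3K4me1 peak, 2587 bp upstream of ETV5, was wider than 96.3% of the replicate 2 list.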

How the data were processed

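Per the submitters' processing notes, the tools were Trimmomatic 0.33, bcl2fastq 2.17, MACS2 2.1.0 and Bowtie 1.1.2, and the build hg19, with no role given for each tool. Neither a peak threshold nor a control for peak calling is stated. The lists deposited by the authors are separate for every library, with 4 columns (chromosome, start, end, name) and no header, so the only values are positions in bp. Starts were turned to positions counted from 1. Peaks were clipped to the windows, although none crossed an edge.

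Covered length, merged regions (overlap of 1 bp or more), tiles and exact tests were computed in Python 3.11.15 with NumPy 2.4.6, pandas 2.3.3 and SciPy 1.17.1. Interval arithmetic was tested on simulated data and equalled base by base counting in 200 of 200 sets. Named regions are, for each gene, those at or nearest the start and the widest of each mark, and regions needed to account for the rest were named after their values were seen. The genes, windows and rules were chosen with earlier results of these data known. Other ETS genes were not analysed here for want of positions in hg19. Samples were grouped by antibody and replicate number in the titles.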

Additional observations from a re-analysis of the deposited data

How the results depend on the processing

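H3K4me1 exceeded H3K27ac in all 52 combinations of gene and setting. Some of these settings could not change a difference. The replicate blocks given below alter only p, and taking peaks by their midpoint changed nothing because no peak crossed a window edge. The midpoint setting is counted in the totals that follow too. The direction between genes was not turned in 96 of 108 combinations of pair, mark and setting, among them H3K27ac of ETV4 and ETV5 with gene spans only, both at 0. With gene spans only, H3K27ac of ETV1 minus ETV4 and ETV1 minus ETV5 became 1.82 percentage points each, ETV4 minus FLI1 and ETV5 minus FLI1 became -0.318 each, and H3K4me1 became 1.12 for ETV1 minus ETV5 and 2.31 for ETV1 minus FLI1, because the flanks are left out. With flanks of 100 kb, H3K27ac became -0.397 for ETV1 minus FLI1 and -0.377 for ETV5 minus FLI1, and H3K4me1 -2.16 for ETV5 minus FLI1 and 0.0104 for ETV4 minus FLI1. With flanks of 25 kb, H3K4me1 of ETV1 minus FLI1 became 1.07. The cause was not tested. Leaving out a replicate moved H3K4me1 of ETV1 minus FLI1 between -1.05 (without replicate 2) and 0.487 (without replicate 1), and of ETV5 minus FLI1 between -0.0363 (without replicate 2) and 1.54 (without replicate 1), and turned no other pair. Without a replicate, H3K4me1 minus H3K27ac ranged from 1.20 to 4.12 at ETV1, 4.38 to 6.38 at ETV4, 2.03 to 4.99 at ETV5 and 2.99 to 4.37 at FLI1, lowest without H3K4me1 replicate 2 and highest without H3K4me1 replicate 1. With flanks of 25 kb the difference at ETV4 was 10.2, with the span only 17.7, and with equal numbers of widest peaks the difference at ETV1 was 1.30 (exact permutation p = 0.667, with the libraries of the marks overlapping). Of 209 combinations for single values, such as peak numbers, 54 moved them by more than the spread between replicates or the counting interval. No share of H3K27ac regions could be given for ETV4 and ETV5 with spans only, or for FLI1 with equal numbers of widest peaks. The replicate block gave the same differences between marks, 2.66 at ETV1, 5.38 at ETV4, 3.51 at ETV5 and 3.68 at FLI1, with an exact sign-flip permutation p of 0.5, the smallest possible. Replicate numbers pair no samples in the labels. The deviations of same-numbered libraries correlated at -0.432 over 29457 tiles of 100 kb, across tiles that are not independent, and a block with crossed numbers, added after seeing the data, changed no call. Depth is unknown, so no listed peak does not mean no mark.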
